A study of Rattus norvegicus with 22 samples.

Results

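Voltage-gated and potassium channel genes encode the proteins that set the resting potential of a cell and shape its action potentials. A pore subunit conducts potassium, sodium or calcium, and auxiliary subunits change how often the pore opens or how much of it reaches the membrane. In brain most of these channels belong to neurons, where sodium channels carry the spike, voltage-gated potassium channels end it and calcium channels at the nerve ending trigger transmitter release. Inward rectifier and 2-pore domain potassium channels hold the membrane potential in neurons, glia and vessel cells, and calcium-activated potassium channels open when calcium enters the cell.

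The channel genes were the 116 of 13718 gene symbols on the array whose symbol begins with Kcn, Cacn, or Scn followed by a number. The rule uses gene names and no measured value, although it was set with earlier results of these data known. They were read by 173 probe sets, 81 genes by 1 probe set and 35 by several, and the probe set with the highest mean over all 22 arrays stood for a gene. By symbol they divided into 27 voltage-gated potassium pores, 7 silent potassium subunits that only modify other pores, 10 potassium channel auxiliary subunits, 8 calcium- or sodium-activated potassium channel genes, 15 inward rectifiers, 11 2-pore domain channels, 10 sodium channel alpha and 4 beta subunits, 10 calcium channel pores and 14 calcium channel auxiliary subunits. All 116 matched a rat gene in RefSeq (114 by symbol, 1 by accession and 1 by synonym), and the classes follow the symbols. A symbol does not fix what a protein does, and some subunits named for calcium channels, such as Cacng3, are better known as partners of glutamate receptors. In all 4 groups 16 members had a mean signal under 58, the 25th percentile of all signals.

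RNA was measured on Affymetrix Rat Genome 230 2.0 arrays in 4 groups of male Fischer rats, which were 8 weeks old at arrival. Every rat carried 9L cells, a rat gliosarcoma line, in the right caudate nucleus, so the untreated rats bore tumors too. The groups were tumor 6 h after synchrotron microbeam radiation therapy (MRT; microbeams of 400 Gy, valleys of 18 Gy, 10 days after implantation; 6 rats), tumor of untreated rats (5 rats), contralateral brain of the same MRT rats (6 samples) and contralateral brain of the same untreated rats (5 samples). Contralateral tissue is the opposite side of the brain, without tumor but inside the irradiated field in MRT rats, and both tissues were punched from frozen sections. Rats 6 to 11 received MRT and rats 1 to 5 did not. Signals are RMA values in arbitrary units, which compare 1 probe set between arrays but not 1 gene with another. Fold changes are differences of log2 signals with their standard error (SE). Tests were by limma, moderated linear models, with p-values adjusted by the Benjamini-Hochberg method over 31042 probe sets and a threshold of 5%.

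Some properties of the arrays touch the results. The gap between the 5′ and 3′ probe sets of the labelling spike-ins, RNAs added to each sample, split the contralateral arrays into rats 1, 5, 9, 10 and 11 (−0.80 to −0.55 on the log2 scale) and rats 2, 3, 4, 6, 7 and 8 (−1.55 to −1.25), called the small and large gap rats below. On tumor arrays the same rats ran from −1.46 to −0.73 and from −2.80 to −1.31. The tumor array had the larger gap of the 2 arrays of a rat, except in rat 9. Markers of striatal projection neurons (8 genes, mean log2 signal) were highest in rats 3, 7 and 9 in both tissues, at 10.84 to 11.65 in their contralateral samples and 11.47 to 11.88 in their tumors. All other samples lay at 8.06 to 10.57. The study worked in 2 sessions, which the records used here do not assign to rats, so a session effect was not tested.

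The first question was whether channel genes responded to MRT in contralateral brain. Of 116 channel genes, 1 rose and 2 fell, against 2.86% and 1.24% of all probe sets, or 4.42% and 1.38% with 1 probe set per gene (0.862% and 1.72% of the channel genes). Kcnn3 rose, and Kcnh1 and Cacna1b fell. The median log2 fold change over the channel genes was −0.06, against −0.02 over all probe sets and −0.0007 with 1 probe set per gene. Of the 116, 78 had a negative value, a share that was not counted over all genes. At an unadjusted p under 0.05 there were 12, or 10.3%, against 13.0% of all probe sets. The changes in signal were bounded, since the 95% interval lay within a 1.5-fold change either way for 102 of 116 and within 2-fold for all 116. Mean signals were under 58 for 17 members in MRT and 18 in untreated rats. For these dim members a narrow interval of the signal does not bound the change in RNA.

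Kcnn3 (1368626_at) encodes a small-conductance calcium-activated potassium channel, which opens on calcium entry and slows firing after a spike. Its signal in MRT contralateral brain ran from 129 to 195 with a median of 145, against 95, 112, 113, 101 and 112 in untreated rats 1 to 5. All 6 MRT samples were above all 5 untreated samples, and rats 7 and 9 were the highest. The log2 fold change was 0.54 ± 0.12 (SE; 1.46-fold; adjusted p = 0.021, limma; n = 6 MRT and 5 untreated). The adjusted p was 0.067 without untreated rat 1 and 0.062 without untreated rat 4, and the change was 0.63 ± 0.16 within the small gap rats (adjusted p = 0.073) and 0.46 ± 0.18 within the large gap rats (adjusted p = 0.68). Since rats 7 and 9 are also 2 of the 3 rats with the highest striatal markers, the change was also taken without rats 3, 7 and 9, where it was 0.40 ± 0.09 (adjusted p = 0.023). In tumor Kcnn3 had 90 to 132 with a median of 101.5 in MRT rats, against 88, 88, 84, 78 and 97 in untreated rats 1 to 5. These groups overlapped at MRT rats 8 and 10 and untreated rat 5, and the change of 0.29 ± 0.11 did not pass the test (adjusted p = 0.43). The difference between the tissues was −0.25 ± 0.17 (adjusted p = 1).

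Kcnh1 (1368061_at) encodes a voltage-gated potassium channel of the ether-à-go-go family. Contralateral signals ran from 999 to 1240 with a median of 1055 in MRT rats, against 1531, 1466, 1255, 1350 and 1329 in untreated rats 1 to 5. Every MRT sample was below every untreated one, with MRT rat 10 (1240) and untreated rat 3 (1255) almost touching. This was a log2 fold change of −0.36 ± 0.08 (1.29-fold lower; adjusted p = 0.025, limma). In tumor the value was −0.42 ± 0.27 (95% interval −1.0 to 0.17; adjusted p = 0.82), with 333 to 640 and a median of 457.5 in MRT rats, against 320, 726, 512, 893 and 878 in untreated rats. Rat 1 held the lowest untreated value, below every MRT tumor, so the tumor groups overlapped.

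Cacna1b (1370444_at) encodes the pore of the N-type calcium channel, which admits calcium at nerve endings. In contralateral brain it had 1023 to 1391 with a median of 1163.5 in MRT rats, against 1693, 1421, 1552, 1642 and 1447 in untreated rats 1 to 5. Here too the groups did not overlap. Cacna1b changed by −0.39 ± 0.09 on the log2 scale (1.31-fold lower; adjusted p = 0.029, limma). A second probe set of the gene, 1371175_a_at, gave −0.14 (adjusted p = 0.80), and the mean of both gave −0.27 ± 0.10 (adjusted p = 0.17). Without rats 3, 7 and 9 the change was −0.32 ± 0.10 (adjusted p = 0.10). In tumor it was −0.16 ± 0.20 (95% interval −0.60 to 0.29).

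**Figure D1:**
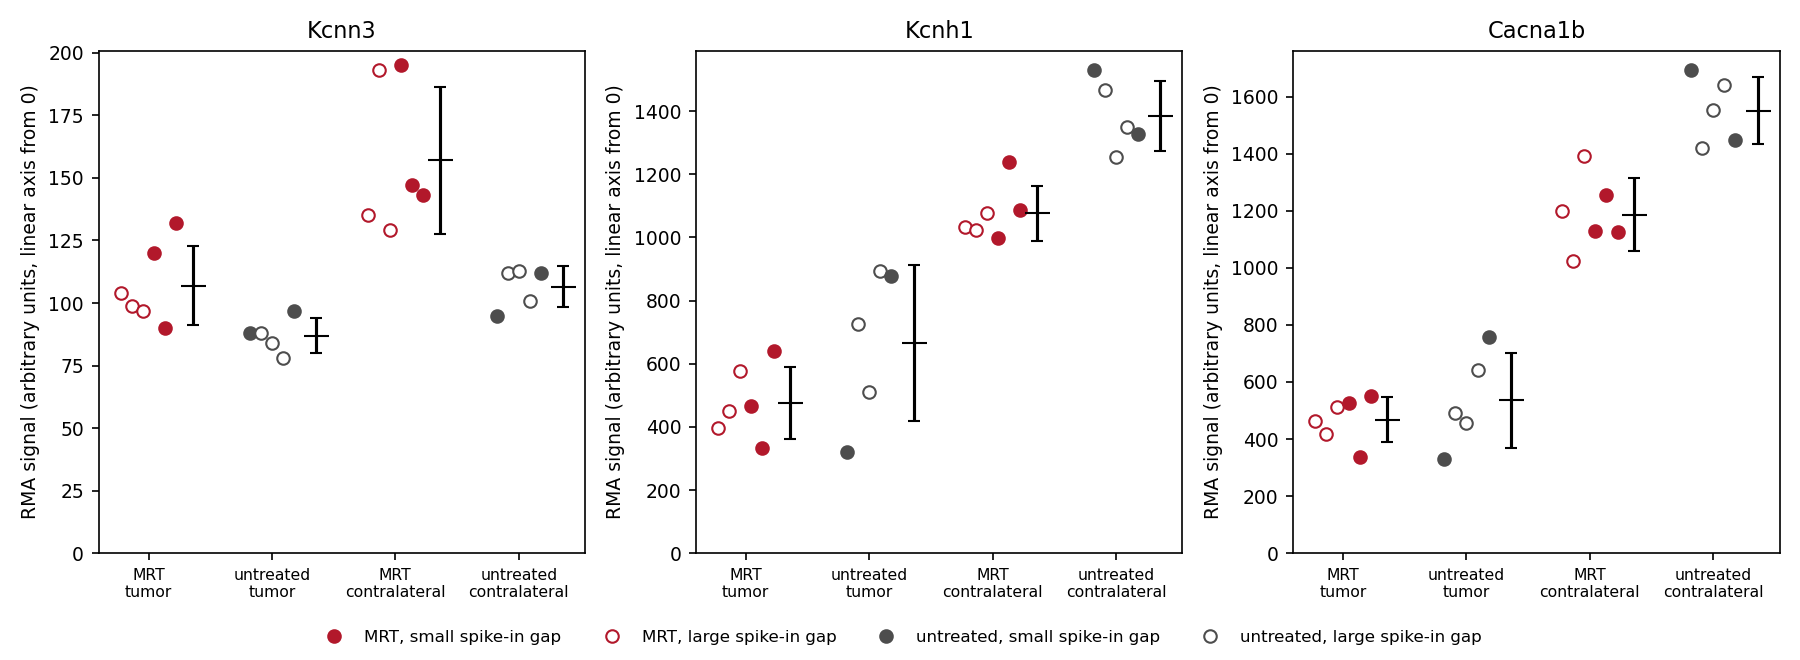
Array signals (RMA, arbitrary units, linear axes from 0) of Kcnn3, Kcnh1 and Cacna1b in each rat. Circles are single samples, red for MRT and grey for untreated, filled for small and open for large spike-in gap, and bars give the group mean with its SD. In contralateral brain the 6 MRT samples do not overlap the 5 untreated samples for any of these genes, while the tumor groups overlap.

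The calls on Kcnh1 and Cacna1b rested on the spread taken from contralateral arrays alone. With all 4 groups in 1 fit, which adds the wider spread of the tumors, the same differences had adjusted p = 0.66 and 0.35. Leaving out rat 1, 2, 4, 6, 9 or 11 brought Kcnh1 to an adjusted p of 0.053 to 0.084, and leaving out rat 1, 3, 4, 6, 9 or 11 brought Cacna1b to 0.052 to 0.092. Within the small and large gap rats Kcnh1 had −0.37 ± 0.12 and −0.37 ± 0.14, and Cacna1b −0.42 ± 0.10 and −0.36 ± 0.16, with adjusted p of 0.074 to 0.84 in these smaller groups. In contralateral brain 0 of the 11 neuron markers passed the test in either direction, and their mean log2 signal was 12.77 to 12.92 in MRT rats and 12.77 to 13.10 in untreated rats. Of 6 cortical excitatory markers 0 passed, with a median log2 fold change of −0.21 and the list at 9.27 to 9.62 in MRT rats and 9.51 to 9.77 in untreated rats. Of 8 striatal markers 0 passed, with a median of 0.51 and the list at 9.26 to 11.65 in MRT rats and 9.00 to 10.84 in untreated rats. Of 8 astrocyte markers 1 rose, Gfap at 0.73 ± 0.19 (adjusted p = 0.049), with the list at 12.25 to 12.52 in MRT rats and 12.15 to 12.47 in untreated rats. Markers of other cells moved more. Of 7 microglia and macrophage markers 2 rose and 5 fell, and the list stood at 7.38 to 7.80 in MRT rats and 8.04 to 8.27 in untreated rats, without overlap. Of 6 T cell markers 4 rose and 0 fell, with the list at 6.33 to 7.16 in MRT rats and 6.05 to 6.36 in untreated rats. Of 8 endothelial markers 1 rose and 2 fell, with the list at 7.75 to 8.78 in MRT rats and 8.61 to 8.73 in untreated rats, and of 7 mural cell markers 3 fell. Of 4 measured oligodendrocyte precursor markers 1 fell, Pdgfra at −0.67 ± 0.14 (adjusted p = 0.011, limma). The part of all these cells, and of the brain regions in the punches, in the 3 changes was not tested. In bulk tissue, fewer cells of a type and less RNA per cell cannot be told apart, here and in the comparisons that follow.

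Promoters of the 3 changed genes are shown as the sequence around their RefSeq start sites (GRCr8, 250 bases before to 50 after), since RNA changes of this kind are often read against the factor motifs there. The table held such a window for 78 of the 116 channel genes. Neither strand of the 3 windows held the AP-1 motif TGANTCA, the cAMP response element TGACGTCA, the NF-kB motif GGGNNTTCC or an RE1 (below), so no letters are in capitals.
Kcnn3 (chr2:177234090-177234389, plus strand): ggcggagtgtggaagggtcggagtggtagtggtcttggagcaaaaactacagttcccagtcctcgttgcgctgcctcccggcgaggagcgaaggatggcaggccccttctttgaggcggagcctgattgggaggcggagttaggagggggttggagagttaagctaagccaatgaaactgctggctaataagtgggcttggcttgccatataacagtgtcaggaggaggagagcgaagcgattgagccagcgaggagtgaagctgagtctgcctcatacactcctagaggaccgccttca
Kcnh1 (chr13:106252966-106253265, plus strand): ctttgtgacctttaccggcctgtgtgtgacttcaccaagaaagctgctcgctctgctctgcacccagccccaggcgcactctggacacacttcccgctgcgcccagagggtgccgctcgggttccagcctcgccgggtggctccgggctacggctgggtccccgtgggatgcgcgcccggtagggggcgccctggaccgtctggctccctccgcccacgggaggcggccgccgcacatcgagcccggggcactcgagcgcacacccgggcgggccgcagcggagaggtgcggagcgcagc
Cacna1b (chr3:27944236-27944535, minus strand): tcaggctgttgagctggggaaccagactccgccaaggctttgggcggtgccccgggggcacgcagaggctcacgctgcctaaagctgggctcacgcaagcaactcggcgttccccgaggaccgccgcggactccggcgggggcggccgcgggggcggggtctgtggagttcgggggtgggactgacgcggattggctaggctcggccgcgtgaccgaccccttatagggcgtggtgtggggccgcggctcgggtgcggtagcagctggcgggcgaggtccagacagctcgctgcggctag
Over all 78 windows 4 held the AP-1 motif (5.13%, against 7.33% of 27457 rat promoters), 0 the cAMP response element (1.91% of all) and 1 the NF-kB motif (1.28%, against 5.97%). Those 4 were Scn3a, Kcnj1, Kcnj16 and Kcne1, and the NF-kB match was in Cacna2d1. None of these 5 genes passed the test for MRT in either tissue. The channel windows had a median GC content of 62.0%, against 52.3% for all promoters. A match is a description of letters and not a binding site.

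Just outside the threshold in contralateral brain stood genes of several classes. Kcnj6, a G protein-gated inward rectifier that inhibits neurons, had 1423 to 1890 with a median of 1627.5 in MRT rats, against 2136, 2468, 1828, 2283 and 1900 in untreated rats. Only MRT rat 10 (1890) overlapped the untreated range. The value was −0.37 ± 0.10 (adjusted p = 0.060), and 0.05, −0.25 and −0.02 in its 3 other probe sets. Kcnk10, a mechanosensitive 2-pore domain channel, had 62 to 72 with a median of 66.5 in MRT rats, against 61, 52, 58, 53 and 57 in untreated rats, close to the low end of the array. The groups did not overlap, but the value of 0.25 ± 0.08 did not pass (adjusted p = 0.10). Kcnk5, an acid-sensitive 2-pore domain channel, gave 0.31 ± 0.09 on the log2 scale (adjusted p = 0.11). Groups free of overlap numbered 2 above and 2 below among the channel genes, against 2.51% and 1.29% of all probe sets.

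SAM, the permutation method used by the study, called 3 higher and 3 lower in contralateral brain, against 4.02% and 1.99% of all probe sets. These were Kcnn3, Kcnk10 and Kcnk5, and Kcnh1, Cacna1b and Kcnj6. The large-conductance calcium-activated channel Kcnma1, the calcium channel subunit Cacna2d3, the potassium channel partner Kcnip1 and the small-conductance channel Kcnn2 had log2 fold changes of −0.27 ± 0.08, −0.24 ± 0.07, −0.27 ± 0.10 and −0.25 ± 0.09, with adjusted p of 0.11 to 0.20. Kcnma1 was chosen after its value was seen. Scn7a, an atypical sodium channel that senses sodium outside the cell, had the second largest positive value of the channel genes, 0.39 ± 0.25 (adjusted p = 0.63), with MRT rats spread from 46 to 131 and untreated rats at 75, 74, 58, 54 and 56. Kcnh7, of the ether-à-go-go family, had −0.35 ± 0.23 (adjusted p = 0.66).

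By class, the calcium channel pores had the lowest median in contralateral brain (−0.12, 8 of 10 negative) and the calcium- or sodium-activated potassium channels the highest (0.04, 6 of 8 positive). Of the calcium channel pores 1 of 10 fell and of the activated potassium channels 1 of 8 rose. Of the 27 voltage-gated potassium pores 1 fell. In the 7 other classes none passed limma, and at an unadjusted p under 0.05 they held 2 of 15 inward rectifiers, 2 of 11 2-pore channels, 1 of 14 calcium channel auxiliary subunits and 1 of 10 potassium channel auxiliary subunits. SAM added its 3 genes to the inward rectifier and 2-pore classes.

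**Figure D2:**
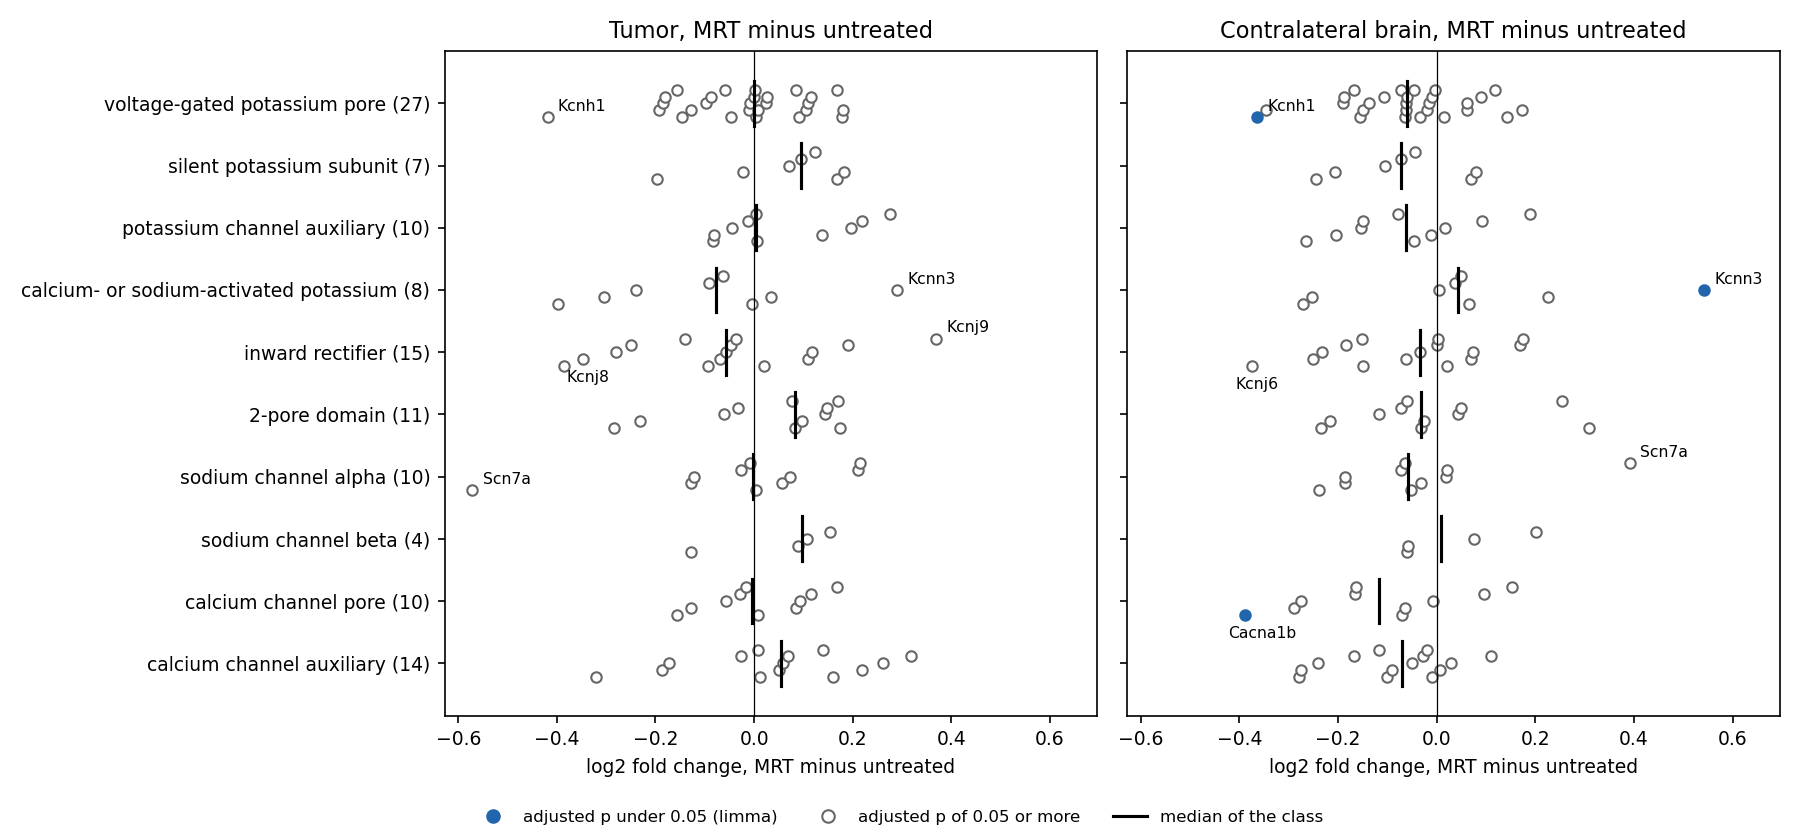
Log2 fold changes, MRT minus untreated, of the 116 channel genes by class (number of genes in brackets), in tumor and in contralateral brain. Each circle is 1 gene, filled where limma passed the 5% threshold, and vertical bars are class medians. In tumor no circle is filled, and in contralateral brain the filled circles are Kcnn3, Kcnh1 and Cacna1b.

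In tumor, 0 channel genes rose and 0 fell by limma, against 0.593% and 0.325% of all probe sets, or 0.882% and 0.394% with 1 probe set per gene. SAM called 0 in both directions, against 1.31% and 0.818% of all probe sets. At an unadjusted p under 0.05 there were 4, or 3.45%, against 8.39% of all probe sets. The median log2 fold change was 0.00, with 61 positive and 55 negative values. Tumors varied more than contralateral samples, with a median SE of 0.19 over the channel genes, against 0.12 in contralateral brain. The 95% interval lay within 1.5-fold for 62 of 116 and within 2-fold for 103, so for 13 of them a change of 2-fold was not excluded by these arrays. The limit on dim members holds here too, with 20 under 58 in MRT tumors and 23 in untreated tumors.

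Kcnj8 (1368911_at), the pore of an ATP-sensitive potassium channel found in pericytes and vascular smooth muscle, was the only member whose tumor groups did not overlap. It had 77 to 110 with a median of 108.5 in MRT tumors, against 146, 140, 119, 136 and 115 in untreated tumors 1 to 5. Such groups made up 0.862% of the channel genes below and 0% above, against 0.612% and 0.989% of all probe sets. Its log2 fold change was −0.35 ± 0.11 (adjusted p = 0.30), and with arrays weighted by their quality it was −0.33 (adjusted p = 0.039). In contralateral brain it was −0.00 ± 0.09, and the difference between the tissues was −0.35 ± 0.14 (adjusted p = 1).

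Abcc9 (1398265_at), a member of the list of channel partners and not a channel gene, encodes the regulatory subunit that joins Kcnj8 in that channel. It fell in both tissues. Tumor signals were 102 to 126 with a median of 115.5 in MRT rats, against 149, 191, 156, 165 and 149 in untreated rats, and the change was −0.49 ± 0.09 (adjusted p = 0.026). Contralateral signals were 93 to 116 with a median of 103.5 in MRT rats, against 171, 137, 131, 133 and 167 in untreated rats, with −0.50 ± 0.10 (adjusted p = 0.0085). In each tissue all MRT samples were below all untreated samples. Abcc9 is itself 1 of the 7 mural cell markers, of which 0 rose and 1 fell in tumor (Abcc9; list at 8.24 to 8.85 in MRT and 8.57 to 8.98 in untreated tumors) and 0 rose and 3 fell in contralateral brain (7.62 to 8.19 in MRT and 8.26 to 8.42 in untreated rats). In tumor 1 of 7 microglia and macrophage markers and 2 of 8 endothelial markers also fell. The part of mural and other cells in these values was not tested.

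**Figure D3:**
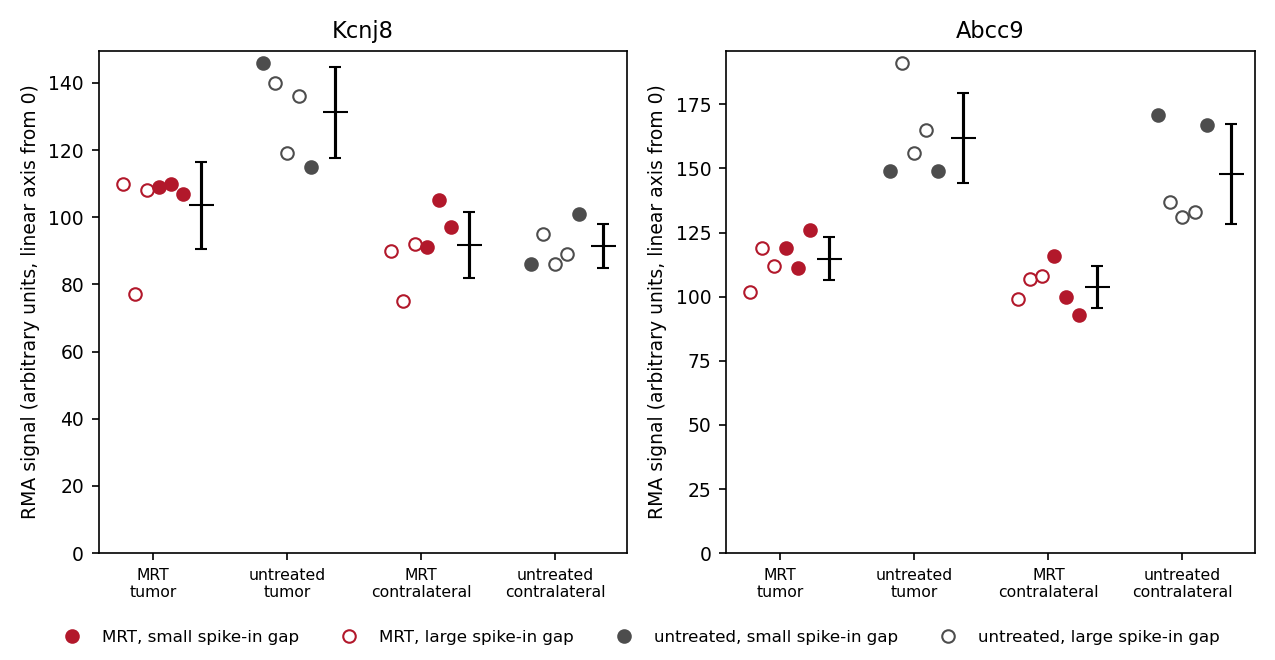
Array signals (RMA, arbitrary units, linear axes from 0) of Kcnj8 and of its partner Abcc9 in each rat, with symbols as for the called genes and bars for the group mean and SD. Kcnj8 was lower in all 6 MRT tumors than in the 5 untreated tumors but not in contralateral brain, while Abcc9 was lower in MRT samples of both tissues.

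The other 3 genes under an unadjusted p of 0.05 in tumor were Kcnn3 (above), Kcnj5 and Kcnh5. Kcnj5, a G protein-gated inward rectifier, had −0.28 (adjusted p = 0.30), and Kcnh5, of the ether-à-go-go family, had 0.18 (adjusted p = 0.49). Both were chosen after their values were seen. The largest negative values belonged to Scn7a (−0.57 ± 0.27, adjusted p = 0.63), Kcnh1, Kcnn2 (−0.40 ± 0.28) and Kcnj6 (−0.38 ± 0.28). The largest positive ones belonged to Kcnj9, a G protein-gated inward rectifier (0.37 ± 0.23), Cacng7, which assists glutamate receptors (0.32 ± 0.24), Kcnn3 and the potassium channel partner Kcnip2 (0.28 ± 0.43), with adjusted p of 0.43 to 0.98.

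The tissue difference of the MRT change, tumor minus contralateral brain, passed the test in 0 channel genes in either direction, against 0.0644% higher and 0.403% lower over all probe sets, or 0.0875% and 0.736% with 1 probe set per gene. At an unadjusted p under 0.05 there were 3 (Scn7a, Kcnj8 and Kcnj14), or 2.59%, against 3.85%. Scn7a had the largest difference, −0.96 ± 0.39 (95% interval −1.78 to −0.15; adjusted p = 1). All 8 calcium- or sodium-activated potassium channel genes had a negative difference and all 7 silent subunits a positive one, with none past the test. Kcnj14, an inward rectifier at 0.30, was chosen after its value was seen.

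The largest differences in channel RNA were between the tissues. In untreated rats 5 channel genes were higher and 82 lower in tumor than in contralateral brain, or 4.31% and 70.7% of the 116, against 22.6% and 32.2% of all probe sets. With 1 probe set per gene over the whole array both directions stood at 30.6%. The median log2 fold change over the channel genes was −0.89, against −0.12 over all probe sets and −0.05 with 1 probe set per gene. Of the channel genes 54 were more than 2-fold lower. In MRT rats 3 were higher and 81 lower in tumor. The shares over the array were 22.8% and 31.4% of all probe sets, or 29.8% and 31.8% with 1 probe set per gene. The median over the channel genes was −0.82, against −0.10 over all probe sets and −0.06 with 1 probe set per gene. The lower genes were shared by both sets of rats for 74, or 90.2% of the untreated and 91.4% of the MRT list, and the 3 higher genes of MRT rats were among the 5 of untreated rats. Groups free of overlap were 3 higher and 61 lower in untreated rats (2.59% and 52.6%, against 16.1% and 20.4% of all probe sets) and 2 higher and 57 lower in MRT rats (1.72% and 49.1%, against 13.6% and 16.5%).

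**Figure D4:**
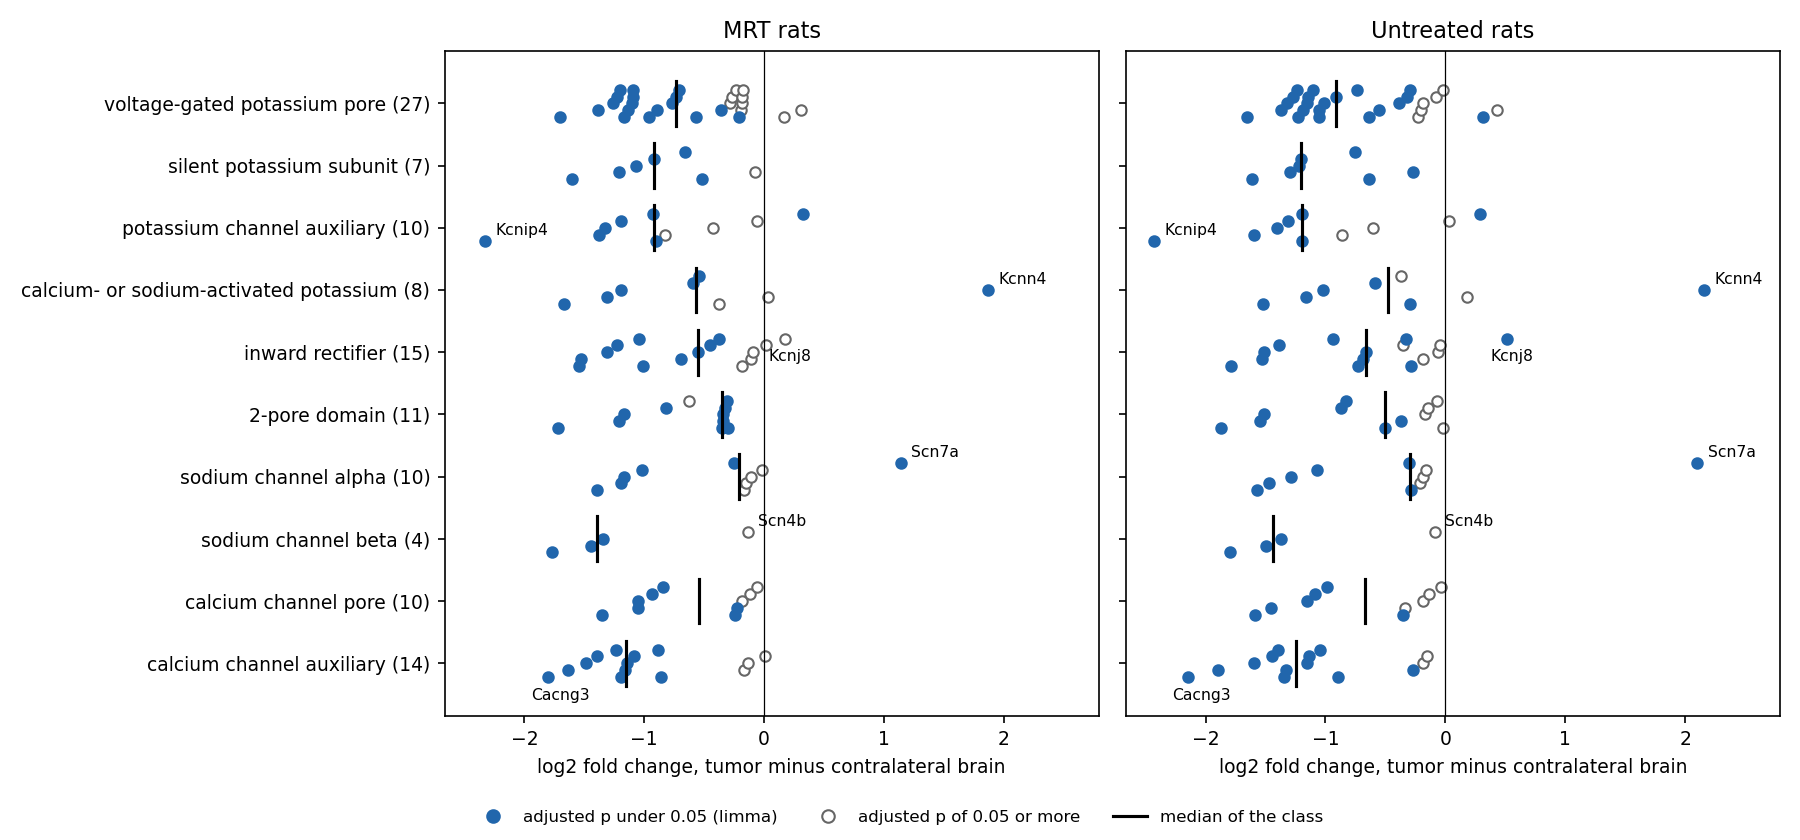
Log2 fold changes, tumor minus contralateral brain, of the 116 channel genes by class (number in brackets), in MRT rats and in untreated rats. Each circle is 1 gene, filled where limma passed the 5% threshold, and vertical bars are class medians. Nearly all filled circles lie left of 0, with Kcnn4 and Scn7a far to the right in both sets of rats.

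Kcnn4 (1368930_at), the intermediate-conductance calcium-activated potassium channel of blood cells, microglia and many tumor cells, had the largest difference upward. Its signal was 161, 146, 184, 101 and 148 in untreated tumors, against 27, 32, 42, 29 and 35 in contralateral samples of the same rats. In MRT rats it was 94 to 235 with a median of 127.5 in tumor, against 33 to 48 with a median of 36.5 in contralateral brain. No tumor overlapped a contralateral sample. The log2 fold change was 2.16 ± 0.20 in untreated rats (4.46-fold; adjusted p = 1.5e-08) and 1.87 ± 0.18 in MRT rats (adjusted p = 3.2e-08). All contralateral signals were under 58, so the size of this fold depends on values at the low end of the array, and with signals under 58 set to 58 it was 1.32 ± 0.18 in untreated rats and 1.26 ± 0.16 in MRT rats. Of 7 microglia and macrophage markers 3 were higher and 0 lower in tumor in both sets of rats, with the list at 8.08 to 8.80 in MRT tumors and 8.66 to 10.34 in untreated tumors, against 7.38 to 7.80 in MRT and 8.04 to 8.27 in untreated contralateral brain. Of 6 T cell markers 4 were higher in untreated and 1 in MRT tumor and 0 lower, with the list at 6.84 to 7.46 in MRT tumors and 6.57 to 7.29 in untreated tumors, against 6.33 to 7.16 in MRT and 6.05 to 6.36 in untreated contralateral brain. All 6 dividing cell markers were higher in tumor, with median log2 fold changes of 5.73 in untreated and 5.59 in MRT rats. Untreated tumor 5 had the highest microglia and macrophage list (10.34), and its Kcnn4 signal of 148 was within the range of the other untreated tumors. The part of these cells in the Kcnn4 difference was not tested.

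Scn7a (1370973_at) was the other member with a large difference upward. It had 232, 204, 229, 343 and 380 in untreated tumors, against 75, 74, 58, 54 and 56 in contralateral samples of the same rats. In MRT rats it had 134 to 391 with a median of 153 in tumor, against 46 to 131 with a median of 82 in contralateral brain. Tumor and contralateral samples did not overlap, although the highest MRT contralateral sample (131, rat 6) was just below the lowest MRT tumor (134, rat 10). The log2 fold change was 2.10 ± 0.29 in untreated rats (adjusted p = 4e-06) and 1.14 ± 0.26 in MRT rats (adjusted p = 0.001).

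Of the 3 smaller differences upward, Kcnj8 had 0.52 ± 0.11 in untreated rats (adjusted p = 0.00035) and 0.17 ± 0.10 in MRT rats (adjusted p = 0.14). Kcne3, a single-pass subunit that holds potassium pores open, had 0.29 ± 0.12 in untreated rats (adjusted p = 0.045) and 0.32 ± 0.11 in MRT rats (adjusted p = 0.017). Kcnh6, of the ether-à-go-go family, had 0.32 ± 0.13 in untreated rats (adjusted p = 0.042) and 0.16 ± 0.12 in MRT rats (adjusted p = 0.24). Kcne3 lost its call in untreated rats under 13 of 25 alternatives and Kcnh6 under 11 of 25, so both were near the threshold.

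Among genes lower in tumor, Kcnip4 had the largest difference. Kcnip4 (1370595_a_at), a calcium-binding protein that partners the Kv4 pores, had 251, 133, 69, 212 and 604 in untreated tumors, against 1467, 847, 808, 984 and 1371 in contralateral brain of the same rats. In MRT rats it had 64 to 425 with a median of 230.5 in tumor, against 730 to 1229 with a median of 991.5 in contralateral brain. The tissues did not overlap, and the log2 fold change was −2.43 ± 0.47 in untreated rats (5.40-fold lower; adjusted p = 0.00019) and −2.33 ± 0.43 in MRT rats (adjusted p = 0.00011). Its relative Kcnip1 had −1.59 ± 0.22 and the A-type pore Kcnd3 −1.66 ± 0.27 in untreated rats (adjusted p = 5.3e-06 and 3.2e-05). The mean of both Kcnip1 probe sets gave −0.91 ± 0.13 (adjusted p = 3.2e-06), since the dimmer one had −0.23 (adjusted p = 0.051). The silent subunit Kcnv1, which joins other potassium pores, had −1.62 ± 0.25 (adjusted p = 1.6e-05), and all 7 silent subunits were lower.

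Calcium channel auxiliary subunits were lower in tumor for 12 of 14 in untreated rats and 11 of 14 in MRT rats, with medians of −1.24 and −1.15. Cacng3 (1370757_at), which traffics AMPA glutamate receptors in neurons, had 300, 270, 164, 481 and 1210 in untreated tumors, against 1659, 1904, 1437, 1925 and 1489 in contralateral brain of rats 1 to 5. Untreated tumor 5 was far above the other 4 tumors but still below every contralateral sample. The log2 fold change was −2.14 ± 0.41 in untreated rats (adjusted p = 0.00016) and −1.81 ± 0.37 in MRT rats (adjusted p = 0.00033). It was −1.38 within the small gap rats, where it did not pass (adjusted p = 0.073). Cacnb4, a cytoplasmic subunit of calcium channels, had −1.90 ± 0.46 and Cacng7 −1.59 ± 0.19 in untreated rats (adjusted p = 0.0014 and 7.3e-07). The pore Cacna1b had −1.59 ± 0.17 (adjusted p = 1.3e-07).

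RE1 is the element bound by REST, a repressor that silences neuronal genes outside neurons. Searched on both strands with up to 3 mismatches to its core, it was found in 2 of 78 channel windows (2.56%) and in 1.34% of all promoters. These were Kcnab3, a potassium channel beta subunit, with 1 match and Cacng3 with 2. The Cacng3 window is shown because its gene had the second largest difference downward and holds both matches, set in capitals, on the plus strand.
Cacng3 (chr1:186632312-186632611, plus strand): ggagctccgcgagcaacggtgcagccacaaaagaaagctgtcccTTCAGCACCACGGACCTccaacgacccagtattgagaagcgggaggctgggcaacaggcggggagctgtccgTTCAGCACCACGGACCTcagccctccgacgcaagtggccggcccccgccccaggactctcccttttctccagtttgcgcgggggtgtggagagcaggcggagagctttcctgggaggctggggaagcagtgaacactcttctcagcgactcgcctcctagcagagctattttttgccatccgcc
The matches start at −206 and −134 from the RefSeq start, and the same 17 letters are in both. Whether REST has a part in the tumor values of Cacng3 or Kcnab3 was not tested.

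Of the 4 G protein-gated inward rectifiers 3 were lower in tumor. Kcnj3 had −1.79 ± 0.26, Kcnj6 −1.53 ± 0.23 and Kcnj9 −1.51 ± 0.22 in untreated rats (adjusted p = 9e-06, 1.1e-05 and 7.2e-06), and Kcnj5 had −0.04 (adjusted p = 0.72). The 3 probe sets of Kcnj3 differed, at −1.79, −1.15 and 0.15, and their mean gave −0.93 ± 0.11 in untreated rats (adjusted p = 3e-07) and −0.80 in MRT rats, against −1.53 ± 0.24 for the brightest in MRT rats. Of 15 inward rectifiers 10 were lower in both untreated and MRT rats, and Kcnj8 was the 1 that was higher in untreated rats. The 2-pore channel Kcnk1 had −1.87 ± 0.27, the sodium channel pore of axon initial segments Scn8a −1.57 ± 0.32 and the sodium channel beta subunit Scn2b −1.80 ± 0.26 in untreated rats (adjusted p = 8.6e-06, 0.00028 and 8e-06). The small-conductance channel Kcnn2 had −1.52 ± 0.22, in contrast in sign to Kcnn4 of the same family.

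Each class had a negative median in both sets of rats. Voltage-gated potassium pores were lower in tumor for 20 of 27 in untreated rats and 18 of 27 in MRT rats, with medians of −0.91 and −0.74. The 2-pore domain channels were lower for 7 of 11 in untreated rats and 10 of 11 in MRT rats, but by less, with medians of −0.51 and −0.35. Of the 10 calcium channel pores 6 were lower in untreated and 7 in MRT rats, and of the 10 potassium channel auxiliary subunits 6 were lower in both. Sodium channel beta subunits were lower for 3 of 4 in both, and Scn4b was the exception. The sodium channel alpha subunits divided by gene. Of 10, 6 were lower in untreated rats, led by Scn8a, Scn3a, Scn2a1 and Scn1a at −1.57, −1.47, −1.28 and −1.07, which are the pores of brain neurons. Scn10a, Scn11a and Scn4a, known from sensory neurons and muscle, had −0.19, −0.21 and −0.16 and did not pass. Scn3a, Scn1a, Scn10a, Scn11a and Scn4a were chosen after their values were seen. The brain gene Scn2a1 had 899, 2464, 1882, 3218 and 2581 in untreated tumors, against 5358, 5123, 4165, 5338 and 4876 in contralateral brain.

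Markers of several cell types also differed between the tissues. Of 8 astrocyte markers 5 were lower and 2 higher in tumor in both sets of rats. All 11 neuron markers were lower in tumor in both sets of rats, with list means of 11.48 to 12.23 in MRT tumors and 11.37 to 12.28 in untreated tumors, against 12.77 to 12.92 in MRT and 12.77 to 13.10 in untreated contralateral brain. All 6 cortical excitatory and all 6 interneuron markers were also lower in both sets. Striatal projection neuron markers were not, as 1 of 8 was higher and 0 lower in untreated tumor (median log2 fold change 0.22). In MRT rats 0 of the 8 passed in either direction (median −0.24). All 6 dividing cell markers were higher in tumor, at 10.03 to 11.19 in MRT tumors and 10.54 to 12.02 in untreated tumors, against 5.43 to 5.76 in MRT and 5.73 to 6.30 in untreated contralateral brain. The 11 neuron markers were still measured in tumor, where none had a signal under 104. The neuron list was lowest in untreated tumor 1 (11.37) and MRT tumor 7 (11.48) and highest in untreated tumor 5 (12.28). The median of the 116 channel genes was lowest in MRT tumor 7 (6.85) and highest in untreated tumor 5 (7.33). Untreated tumor 1 stood at 6.92, above untreated tumors 2 and 3 (6.87 each). The part of these cells in the differences was not tested.

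Most measured genes of the partner and pump lists were also lower in tumor. Of 31 measured channel partners and anchors 28 were lower and 0 higher in untreated tumor, with a median of −1.20. Of 23 ion pumps and exchangers 19 were lower and 2 higher, and of 28 HCN, TRP and chloride channels 15 were lower and 7 higher. The chloride channel protein Clic1 had 3.80 and the mechanosensitive channel Piezo1 3.47 (adjusted p = 2.3e-13 and 1.7e-11).

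After MRT 4 of 28 HCN, TRP and chloride channels rose and 0 fell in contralateral brain, against 2.86% and 1.24% of all probe sets. Clic1 rose by 1.57 ± 0.14, Piezo1 by 1.19 ± 0.13, the chloride channel protein Clic4 by 0.88 ± 0.14 and the lipid scramblase Ano6 by 0.69 ± 0.13 on the log2 scale (adjusted p of 1.3e-05 to 0.0058). Ano6 was chosen after its value was seen. Whether this list differs from the channel genes was not tested. In tumor 1 of 28 rose, the osmosensitive channel Trpv4 at 0.45 ± 0.09 (adjusted p = 0.030). Of the pumps and exchangers 0 of 23 passed in either tissue, with Atp2a3 at −0.35 ± 0.16 in contralateral brain and Fxyd6 at −0.45 ± 0.15 and Fxyd1 at −0.38 ± 0.16 in tumor.

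Some channel genes varied more between rats than between groups. Scn4b (1373188_at), a sodium channel beta subunit rich in striatal neurons, had 1224 to 9118 with a median of 4403 in MRT tumors, against 1422, 5763, 7785, 4744 and 2386 in untreated tumors 1 to 5. In contralateral brain it had 2864 to 8811 with a median of 4261 in MRT rats, against 3767, 3770, 6418, 3706 and 2898. The highest tumors were those of rats 9, 7 and 3 and the highest contralateral samples those of rats 7, 3 and 9, the same rats whose striatal markers were highest. Its log2 fold change for MRT was 0.15 ± 0.56 in tumor and 0.20 ± 0.25 in contralateral brain, and it was 1 of 29 members that did not pass the test between untreated tissues (−0.09 ± 0.48, adjusted p = 0.89).

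Kcnip2, Kcnab1, Kcnk2 and Kcna5 followed the same rats in tumor. Kcnip2 had 299 in untreated tumor 1 and 445 in MRT tumor 10, against 2046 in MRT tumor 9 and 1513 in MRT tumor 7. Kcnab1, a beta subunit of voltage-gated potassium channels, ran from 725 to 4510 in MRT tumors and from 847 to 3851 in untreated tumors. Kcnk2, a mechanosensitive 2-pore channel, ran from 410 to 1608 in MRT tumors and from 337 to 1171 in untreated tumors. Kcna5, a voltage-gated pore, ran from 43 to 220 in MRT tumors and from 41 to 170 in untreated tumors, and was chosen after its values were seen. For each of these 4 genes rats 9, 7 and 3 held the 3 highest tumors and rats 10 and 1 the 2 lowest. In contralateral brain Kcnip2 and Kcna5 were highest in rat 7 (3135 and 228), with rat 3 next (2809 and 172), and Kcnab1 and Kcnk2 were also highest in rat 7.

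**Figure D5:**
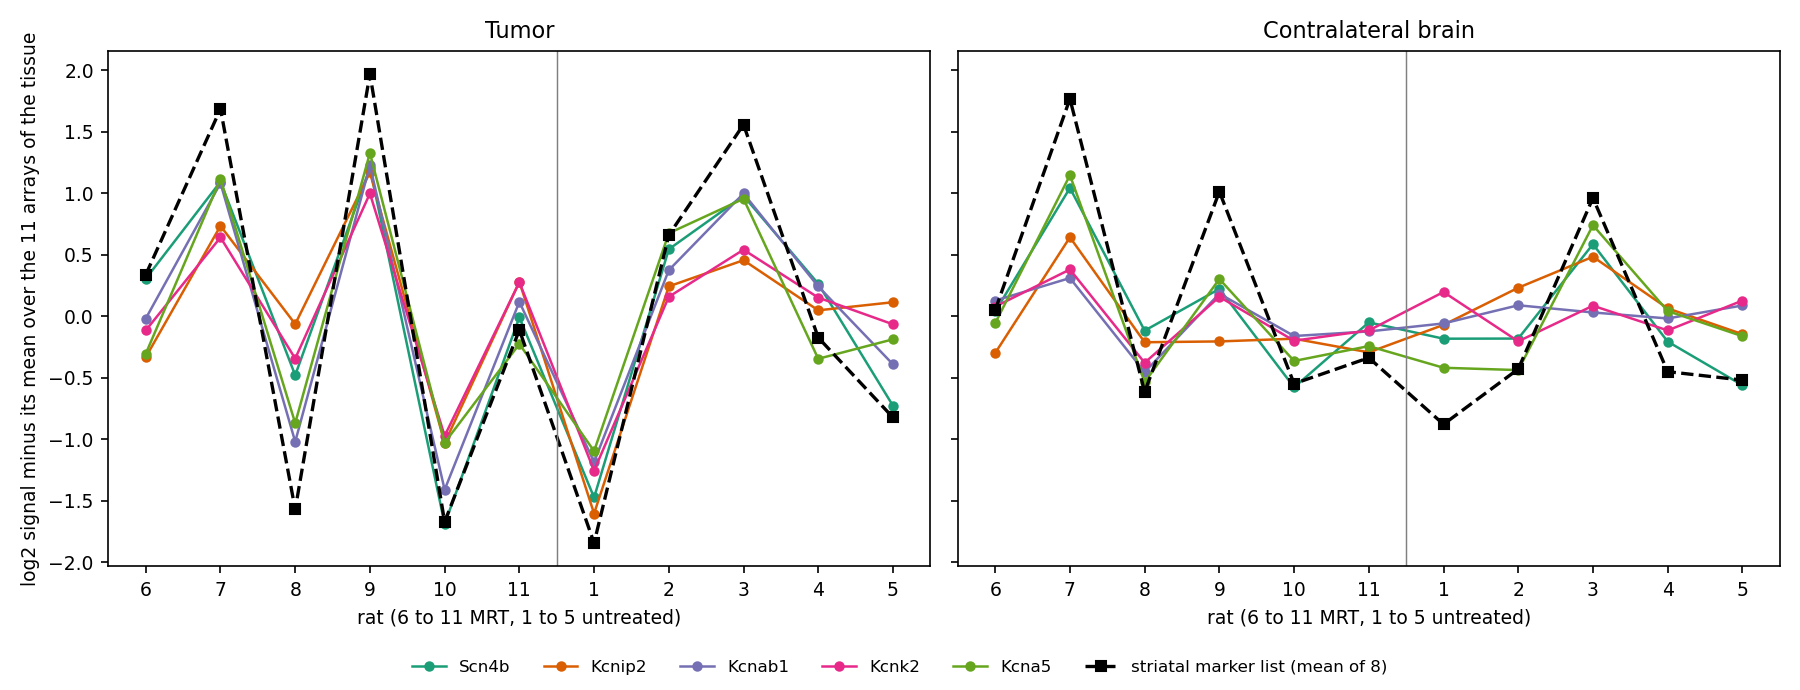
Log2 signals of Scn4b, Kcnip2, Kcnab1, Kcnk2 and Kcna5 and the mean of 8 striatal markers in each rat, less their mean over the 11 arrays of the tissue, with MRT rats 6 to 11 left and untreated rats 1 to 5 right. In tumor all lines peak at rats 7, 9 and 3 and dip at rats 10 and 1, in MRT and untreated rats alike.

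The spike-in gap moved with other channel genes. A comparison of small with large gap rats within each tissue, with treatment as a covariate, was added after the values were seen. It called 7 channel genes higher and 0 lower in the small gap rats in contralateral brain, against 3.64% and 1.19% of all probe sets, and 6 and 0 in tumor, against 3.54% and 1.31%. In contralateral brain these were Cacnb4 (1.15 ± 0.24), Scn8a (0.95 ± 0.16), Kcnh7 (0.69 ± 0.14), Kcnip4 (0.66 ± 0.08), Kcnd3 (0.57 ± 0.13), Kcnj12 (0.50 ± 0.13) and Kcnk1 (0.43 ± 0.09). In tumor they were Kcnip4 (1.52 ± 0.39), Scn2b (0.83 ± 0.19), Scn8a (0.73 ± 0.16), Kcna6 (0.67 ± 0.12), Kcnj9 (0.65 ± 0.14) and Kcnb2 (0.57 ± 0.13), with adjusted p of 2e-04 to 0.049 over both tissues. Scn8a, for example, had 243, 305 and 310 in the small gap MRT rats 11, 9 and 10 in contralateral brain, against 141, 146 and 139 in the large gap MRT rats 6, 7 and 8. In untreated rats it had 315 and 347 in the small gap rats 1 and 5, against 115, 241 and 206 in the large gap rats 2, 3 and 4. Kcnn3, Kcnh1 and Cacna1b were not among these genes. Kcnj12, Kcna6 and Kcnb2 were chosen after their values were seen. MRT and untreated rats both occur in each gap group.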

How the data were processed

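Total RNA (200 ng a sample) from tumor and contralateral punches of 6 MRT and 5 untreated rats was labelled with a 3′ in vitro transcription kit and hybridised to 22 arrays, 1 for each sample. Replicates are separate rats. The authors background-corrected, normalized and summarised the probes by RMA in Affymetrix Expression Console, and the deposited intensities (called signals here) are linear, whole numbers in arbitrary units from 10 to 36564. The study filtered by detection flags, which were not used here. Their number of arrays limits the precision.

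Values were taken as log2 signals. Of 31099 probe sets 57 controls were left out, and of the 31042 tested 19546 had 1 gene symbol, 11124 none and 372 several. The annotated matrix and the value table of the series held the same values. Groups came from the sample labels and samples were placed by column name. limma 3.58.1 (R 4.3.3) was fitted for each tissue alone for MRT minus untreated, and over all 4 groups for the tissue comparisons and the tissue difference of the MRT change. Two-sided p-values were adjusted over all probe sets. SAM was rebuilt with 100 permutations, at a median false discovery rate of 4.69% in contralateral brain and 4.74% in tumor. Steps were tested on simulated data. Tumor and contralateral samples with the same number come from the same rat by their labels, and their residuals correlated with a median of 0.31 (0.10 to 0.65 over 11 rats). Between different rats the median was 0.15 within a gap group (−0.18 to 0.52) and −0.17 across the gap groups. SAM and the residual correlations were also computed in R, and the other summaries in Python 3.11.15 with numpy 2.4.6 and pandas 2.3.3.

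Named genes were the members past limma in an MRT test, the 4 largest rises and falls for each MRT comparison, the 12 largest differences in each direction between untreated tissues, the brightest member of each class in untreated samples, and 2 genes a related list. Members, marker lists and tests were chosen with earlier results of these data known. Alternatives were array weights, a floor and a filter on low signals, other rules for several probe sets, cyclic loess, trended variances, 1 common fit, spike-in and rat blocks, left-out rats, a 1% threshold and SAM. Some named genes of the related lists are not reported here.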

Additional observations from a re-analysis of the deposited data

Results flagged for a closer look

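Single samples stood far from the rest of their group in 9 of 136 groups of channel gene signals tested, where chance gives about 1 in 20 (5%). The measure is the gap to the nearest other sample divided by the range of the group. Of these 3 belonged to contralateral or tumor samples of MRT rat 7, which also had high striatal markers. There Kcnj8 was at 77 in tumor, against 107 to 110 in the other MRT tumors (gap 0.9225 of the range), Kcnip2 at 3135 in contralateral brain, against 1633 to 1770 (0.8765), and the sodium channel pore Scn2a1 at 2974, against 4198 to 4931 (0.6817). MRT tumor 11 had Scn7a at 391, against 134 to 196 (0.6449), and MRT rat 8 had the beta subunit Scn3b at 6786 in contralateral brain, against 5448 to 5763 (0.7441).

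In untreated rats, tumor 1 had Kcnip2 at 299, against 940 to 1247 in the other tumors (0.8021), and tumor 5 had Cacnb4 at 229, against 63 to 89 (0.7323). Tumor 5 also had the highest neuron markers (12.28) and the highest microglia and macrophage markers (10.34, against 8.66 to 8.84). In contralateral brain untreated rat 4 had Cacna2d3 at 3269, against 3545 to 3649 (0.7371), and untreated rat 3 had Scn2b at 383, against 256 to 287 (0.7163).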

How the results depend on the processing

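The counts of channel genes changed by MRT were small and moved with the processing. In contralateral brain the count higher, 1 as reported, was 2 with array weights, a floor on low signals or cyclic loess, and 3 by SAM. It was 0 within the small gap rats, within the large gap rats or at a threshold of 1%, and 0 to 1 leaving out 1 rat (0 without untreated rat 1 or 4). It was also 0 with a filter on low signals, which left 59 channel genes and removed Kcnn3 before the test. The count lower, 2 as reported, was 6 with array weights, 1 with the mean of a gene's probe sets or without rats 3, 7 and 9 (chosen after the values were seen), and 0 with all 4 groups in 1 fit, within either gap group or at 1%, and 0 to 3 leaving out 1 rat. The filter removes dim genes and the gap groups hold fewer rats, while the cause of the other shifts was not tested.

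In tumor 1 gene was higher (Kcnj9 at 0.60) and 1 lower (Kcnj8) with array weights, against 0 and 0. The tissue difference of the MRT change gained 1 lower gene with the floor (Kcnk10). Of the genes higher in untreated tumor, 5 as reported, 3 passed within the small gap rats, within the large gap rats or at 1%. With 1 rat left out the count was 3 to 5. The filter left 46 of the 116 channel genes to be tested between the tissues. Of these 46, 0 were higher and 42 lower in untreated rats, and 0 were higher and 41 lower in MRT rats. Leaving out 1 rat gave 72 to 82 lower in untreated and 75 to 82 lower in MRT rats. Without rats 3, 7 and 9 the counts were 4 higher and 73 lower in untreated rats and 2 and 79 in MRT rats. The tumor value of Kcnip2, not past the test, changed sign to −0.20 with array weights, −0.14 within the large gap rats and −0.089 without untreated rat 1, the lowest of −0.089 to 0.51 over the fits that left out 1 rat. Over 50 results for single members, 1199 of 1270 alternatives kept direction and side of the threshold.

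With the rat as a replicate block, fixed, 6 channel genes were higher and 84 lower in untreated tumor and 4 and 82 in MRT tumor, and as a random block 5 and 86, and 3 and 85. The tissue difference of the MRT change stayed at 0 and 0, and the block changed no call of a named gene. Dim probe sets and arrays without detection flags limit what can be said of the 16 members at the low end.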
